A study of Mus musculus with 15 samples.

Results

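The genes described here encode the 5 subunits of the transcription factor NF-κB (Nfkb1, Nfkb2, Rel, Rela and Relb) and 5 of the IκB proteins that bind them (Nfkbia, Nfkbib, Nfkbie, Nfkbid and Bcl3). They were chosen by symbol from the 17493 genes of the count tables. All 10 were found, and all 10 were among the 10831 genes with enough counts to be tested. Each was followed by bulk RNA sequencing in CD8+ T cells of OT-I mice, with 15 libraries in 5 groups of 3.

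All libraries came from spleen and lymph node T cells of female OT-I mice, strain C57BL/6-Tg(TcraTcrb)1100Mjb/Crl, in which a transgenic receptor recognises an ovalbumin peptide on MHC class I. The unstimulated group was taken at 0 h with no treatment. The IF groups were stimulated for 8 h or 22 h with 5 ng/ml of immunofilaments, synthetic filaments that carried MHC loaded with the SIITFEKL peptide together with interleukin-2 (IF-pMHC(SIIT)/IL-2). The DC groups were stimulated for the same times with 20000 dendritic cells per well, raised with Flt-3 ligand and pulsed with that peptide. Stimulated wells held 50000 T cells, and viable CD8+ CD103- cells were sorted before RNA extraction. The labels describe no unstimulated cells kept for 8 h or 22 h, so stimulation and time in culture cannot be told apart, and interleukin-2 is named for the filaments only. In bulk RNA, a change in the make-up of the sorted cells and a change in RNA per cell cannot be told apart either.

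NF-κB acts as a dimer of its subunits. Nfkb1 and Nfkb2 encode precursors that are processed to p50 and p52, which bind DNA but have no transactivation domain of their own, while Rela, Relb and Rel (c-Rel) carry one. In resting T cells the classical inhibitors IκBα (Nfkbia), IκBβ (Nfkbib) and IκBε (Nfkbie) hold dimers in the cytoplasm. Engagement of the T cell receptor and CD28 leads to activation of the IκB kinase, which marks these inhibitors for degradation. Receptors of the TNF receptor family can also start a slower, non-canonical route in which p100, the Nfkb2 product, is processed and RelB enters the nucleus. The atypical proteins IκBNS (Nfkbid) and Bcl-3 (Bcl3) are nuclear and act with p50 or p52 on chromatin. Several of these genes are known NF-κB targets themselves.

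Reference promoters are shown first, because Nfkb2, Nfkbia, Nfkbie and Bcl3 differed between IF and DC at one time or both, and because Nfkbid rose with both stimuli at 8 h. RefSeq (GRCm38.p6) gave 12 windows for 8 of the 10 genes, each of 300 bases (250 before and 50 after an annotated start). Nfkb1 and Relb had no entry. The windows were searched on both strands for the κB consensus, a motif of 10 bases. Of the 12 windows, 8 held a match, against 4.51% of all 32851 promoter windows in the table. At least 2 matches were found in 4 of the 12, against 0.554% of all windows. These counts describe letters in a window and say nothing on binding. The 12 windows were not independent, since the windows of both later Nfkb2 starts share a match, and their GC content of 56.3% to 75.0% lay above the median of 52.7% for all windows. Below, 280 bases of 5 windows are written 5′ to 3′ on the gene's strand, up to 30 bases after the start, with bases of a κB match in capitals.
Nfkb2, start 1, chr19:46304487-46304766, plus strand: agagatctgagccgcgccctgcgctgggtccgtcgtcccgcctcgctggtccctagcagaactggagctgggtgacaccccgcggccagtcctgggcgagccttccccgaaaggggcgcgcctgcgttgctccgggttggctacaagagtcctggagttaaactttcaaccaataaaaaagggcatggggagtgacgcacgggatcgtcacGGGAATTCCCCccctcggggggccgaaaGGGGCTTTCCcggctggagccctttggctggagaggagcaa
Nfkbia, chr12:55492618-55492897, minus strand: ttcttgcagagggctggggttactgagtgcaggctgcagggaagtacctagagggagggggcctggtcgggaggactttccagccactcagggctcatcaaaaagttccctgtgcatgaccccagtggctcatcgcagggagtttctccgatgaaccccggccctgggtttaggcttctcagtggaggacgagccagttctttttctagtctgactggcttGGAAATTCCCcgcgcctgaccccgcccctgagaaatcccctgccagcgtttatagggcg
Nfkbie, chr17:45555450-45555729, plus strand: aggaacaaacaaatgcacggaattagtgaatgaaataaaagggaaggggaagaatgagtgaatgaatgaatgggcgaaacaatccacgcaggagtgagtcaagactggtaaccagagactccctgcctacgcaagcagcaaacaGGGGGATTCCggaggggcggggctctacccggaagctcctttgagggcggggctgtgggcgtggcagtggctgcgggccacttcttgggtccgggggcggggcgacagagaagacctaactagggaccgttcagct
Bcl3, chr7:19822726-19823005, minus strand: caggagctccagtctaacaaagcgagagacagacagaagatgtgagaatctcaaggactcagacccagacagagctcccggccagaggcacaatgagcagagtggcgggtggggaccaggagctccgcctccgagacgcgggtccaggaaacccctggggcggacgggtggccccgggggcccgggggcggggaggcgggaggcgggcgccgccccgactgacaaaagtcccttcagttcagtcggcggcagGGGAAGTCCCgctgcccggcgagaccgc
Nfkbid, start 2, chr7:30422156-30422435, plus strand: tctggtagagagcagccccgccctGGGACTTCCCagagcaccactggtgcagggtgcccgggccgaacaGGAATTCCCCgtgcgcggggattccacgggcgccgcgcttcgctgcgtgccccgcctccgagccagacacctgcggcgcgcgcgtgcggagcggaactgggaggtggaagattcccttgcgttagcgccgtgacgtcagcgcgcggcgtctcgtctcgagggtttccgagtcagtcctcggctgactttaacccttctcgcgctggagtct

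The first Nfkb2 window held 3 matches, of which 2 overlap from 39 bases before the start and 1 begins 11 bases before it. The Nfkbia match began 29 bases before the start and the Nfkbie match 106 bases before it. The single Bcl3 match began at base 3 after the start. Nfkbid had matches 226 and 181 bases before its second start and none at starts 1 and 3. The Rel window held overlapping matches from 92 bases before the start, and the Rela and Nfkbib windows held none.

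**Figure D1:**
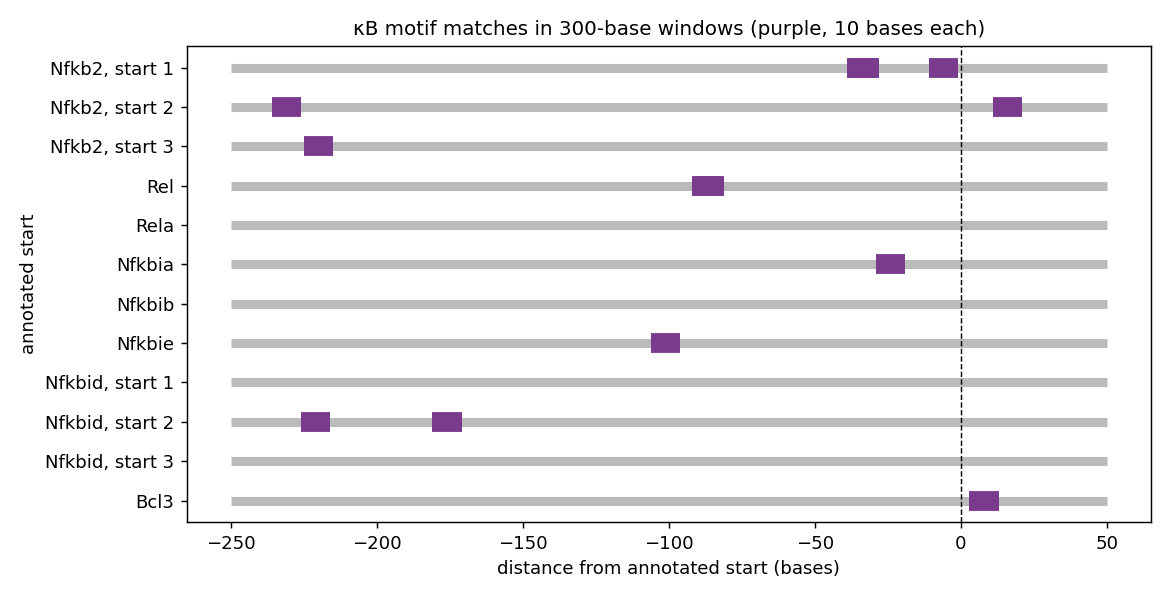
κB motif matches (purple, 10 bases each) in the 12 RefSeq promoter windows of 8 NF-κB and IκB genes; the x axis gives the distance from the annotated start in bases and each row is 1 window. Matches lie in 8 of 12 windows, with none at Rela, Nfkbib or Nfkbid starts 1 and 3.

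Expression is given as normalised read counts (CPM), listed for replicates 1, 2 and 3 and as mean ± SD (n = 3). Statements that the libraries of a group lay wholly above or below those of another describe 3 libraries against 3 and are not a test. The share of all genes that did so is given only for 22 h against 8 h. Fold changes are log2 values ± SE from edgeR's quasi-likelihood test, two-sided, with p-values adjusted by Benjamini-Hochberg over all tested genes and a threshold of 0.05. Total counts per library ran from 2892874 to 19806730, and 11427 to 13591 genes had at least 1 count. The titles number the libraries of every group Don1, Don2 and Don3, given here as replicates 1 to 3. The labels do not say what these numbers stand for or whether a number is shared over groups, so the p-values measure the spread between these libraries, which may be technical. IF 22 h replicates 2 and 3 stood apart, with mitochondrial ribosomal RNA at 0.179% and 0.146% of counts against 1.82% to 4.49% in the other 13 libraries. Calls that rest on them are given with and without both. Without both, the IF 22 h group holds 1 library, which is assumed to vary like those of the other groups, so a p-value from that fit does not show that a call is stable.

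In unstimulated cells Nfkb2, which encodes p100 and p52 (chr19:46304320-46312385, plus strand, mm10), was at 73.7, 91.1 and 46.8 CPM. It was at 203, 186 and 172 CPM at IF 8 h and at 229.8, 309.9 and 272 CPM at DC 8 h. At 22 h it was at 80.0, 89.4 and 84.7 CPM with IF and at 187, 224 and 177 CPM with DC. Every stimulated library at 8 h lay above all unstimulated ones, whereas at 22 h only the DC libraries did so. Nfkb2 rose at IF 8 h (log2 fold change 1.40 ± 0.21, adjusted p = 5.2e-04) and at DC 8 h (1.94 ± 0.21, adjusted p = 4.0e-05). At 22 h it was still raised with DC (1.47 ± 0.21, adjusted p = 4.0e-04), while with IF the log2 difference from unstimulated cells was 0.26 with a 95% interval of -0.17 to 0.69. Nfkb2 overlaps exons of 2 opposite-strand genes in GENCODE vM21, Psd and AC114539.1, and the use of strand in counting is not given in the sources used here.

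Relb, the partner of p52 in the non-canonical route (chr7:19606217-19629438, minus strand), was at 18.1, 21.1 and 24.4 CPM in unstimulated cells. At 8 h it was at 60.5, 56.4 and 68.6 CPM with IF and at 66.1, 69.7 and 73.1 CPM with DC. At 22 h the values were 22.5, 27.8 and 29.3 CPM with IF and 32.0, 33.7 and 42.6 CPM with DC. The 6 libraries at 8 h stood above all others, and the IF and DC values overlapped there. Relb rose 2.92-fold at IF 8 h (log2 fold change 1.55 ± 0.19, adjusted p = 9.8e-05) and 3.29-fold at DC 8 h (1.72 ± 0.19, adjusted p = 4.4e-05). At DC 22 h it was also raised (0.77 ± 0.19, adjusted p = 0.0177). That call was lost when unstimulated replicate 1 (adjusted p = 0.0825) or 2 (0.0576) was left out, without DC 22 h replicate 3 (0.0625) and in a fit of these 2 groups only (0.0812).

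Nfkb1, which encodes p105 and p50 (chr3:135584655-135691547, minus strand), was at 134, 125 and 143 CPM before stimulation. It was at 246, 208 and 217 CPM at IF 8 h and at 217, 314 and 201 CPM at DC 8 h, with the second DC replicate highest. At 22 h it was at 191, 160.1 and 197 CPM with IF and 168, 182 and 152 CPM with DC. Each of the 12 stimulated libraries lay above all 3 unstimulated ones. The rise passed the test at DC 8 h (log2 fold change 0.87 ± 0.18, adjusted p = 0.00587) and at IF 8 h (0.74 ± 0.18, adjusted p = 0.0166). At IF 8 h the adjusted p became 0.0623 or 0.0792 when unstimulated replicate 1 or 2 was left out, and 0.0755 when IF replicate 1 was. At 22 h neither difference passed, at 0.45 with IF (adjusted p = 0.146) and 0.32 with DC (adjusted p = 0.287). Both passed with library size alone (0.0342 and 0.0240).

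Rela, the p65 subunit of the classical p50-p65 dimer (chr19:5637483-5648130, plus strand), did not pass the test in any comparison. Its mean was 67.3 ± 13.8 CPM in unstimulated cells. At 8 h it was 89.5 ± 14.3 CPM with IF and 93.4 ± 18.8 with DC, and at 22 h 77.4 ± 11.3 with IF and 59.0 ± 9.97 with DC. The 95% interval of its log2 difference from unstimulated cells was -0.04 to 0.86 for IF at 8 h and 0.03 to 0.92 for DC. The DC 8 h difference passed with library size alone (adjusted p = 0.0343).

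Rel, which encodes c-Rel (chr11:23736847-23770970, minus strand), had only 8 to 107 counts per library, and its group means lay between 3.77 and 6.71 CPM. The 95% intervals of its log2 differences from unstimulated cells at 8 h were -0.90 to 1.91 with IF and -0.95 to 1.79 with DC. A log2 difference of 1 lay inside both and could not be detected with these libraries. Rel also scattered within groups, with 1.17, 7.77 and 5.35 CPM in unstimulated cells and 5.94, 11.1 and 1.91 CPM at DC 8 h.

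**Figure D2:**
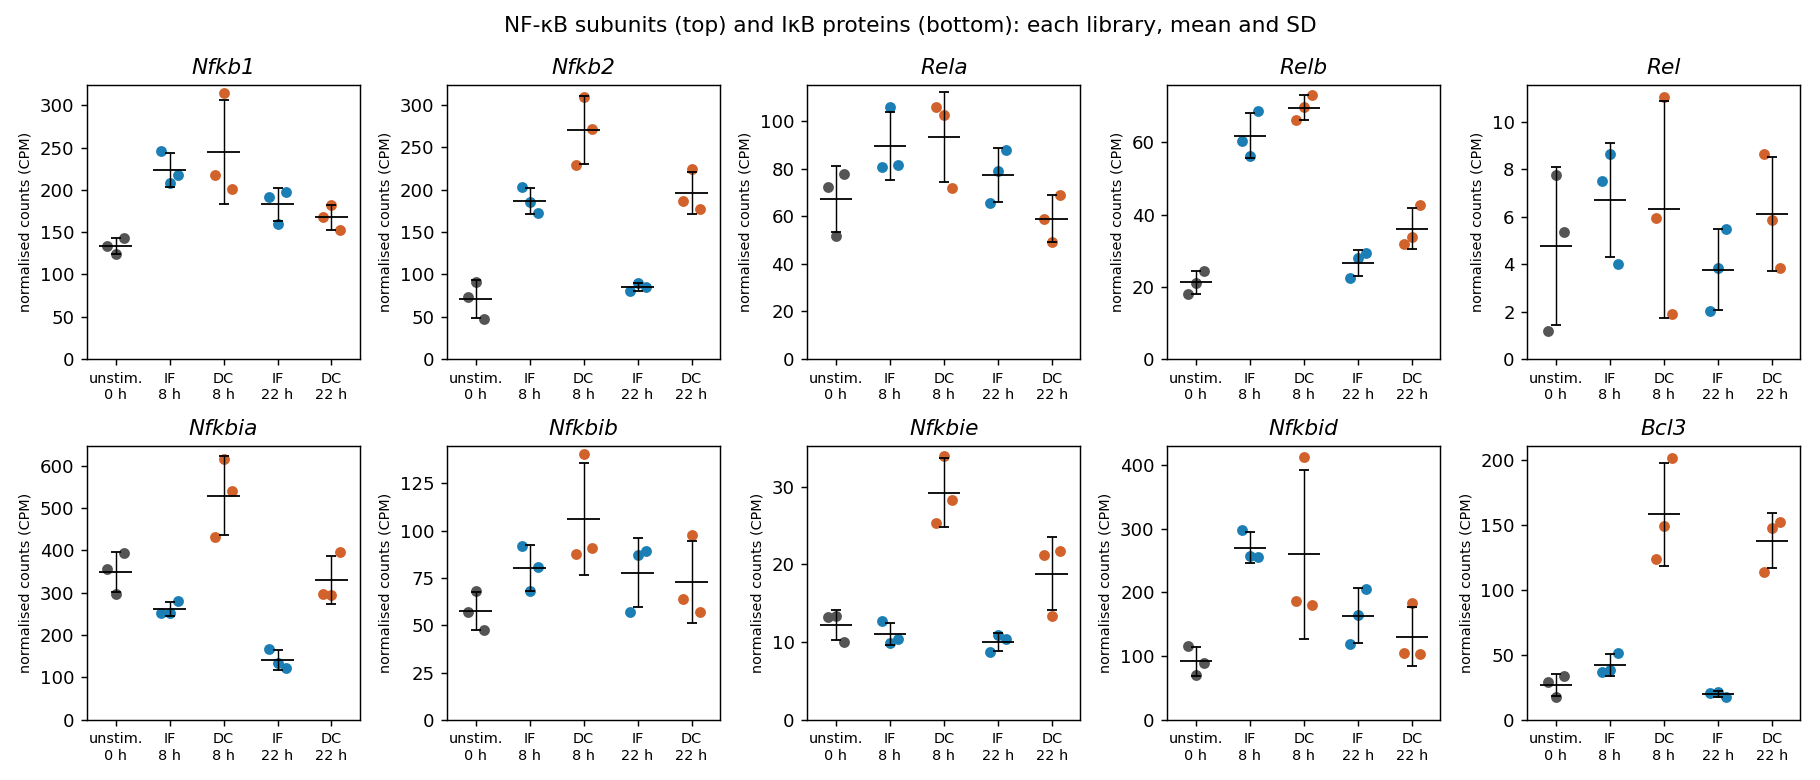
Normalised read counts (CPM, y axes from 0) of the 5 NF-κB subunits (top) and 5 IκB proteins (bottom) in the 5 groups; each point is 1 library, the wide bar the mean and the thin bar the SD (n = 3). Relb stands high in both 8 h groups, Nfkb2 in these and at DC 22 h, while Bcl3 stands high in both DC groups and Nfkbie at DC 8 h.

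Nfkbia, which encodes IκBα (chr12:55489410-55492647, minus strand), was the one gene of the 10 whose decrease against unstimulated cells passed the test in any comparison. It was at 355, 298 and 393 CPM in unstimulated cells. With IF it was at 253, 251 and 280.0 CPM at 8 h and at 168, 135 and 122 CPM at 22 h. With DC it was at 431, 616 and 541 CPM at 8 h and at 298, 296 and 397 CPM at 22 h. Every IF library lay below every unstimulated library at both times, and every DC 8 h library lay above them. Nfkbia fell 2.46-fold at IF 22 h (log2 fold change -1.30 ± 0.18, adjusted p = 3.8e-04). Without both IF 22 h libraries that stand apart the value was -1.05 (adjusted p = 0.0849), with a single library left in that group.

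At IF 8 h the Nfkbia difference was -0.41 ± 0.18 (adjusted p = 0.176), which did not pass. At DC 8 h it was 0.60 ± 0.18 (adjusted p = 0.0539). That value passed with library size alone (0.00795), with every counted gene kept (0.0344), with genes averaging 10 CPM or more (0.0442), by DESeq2 (0.0208) and without DC 8 h replicate 1 (0.0416). The unstimulated libraries also held high counts of the immediate early gene Fos, a gene added after its values were seen. Fos was at 219 to 399.6 CPM there and at most 8.56 CPM in the 12 stimulated libraries, and its part in the Nfkbia difference was not tested.

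Nfkbie, which encodes IκBε (chr17:45555703-45563169, plus strand), was at 13.2, 13.4 and 10.0 CPM before stimulation. With IF it was at 12.7, 9.95 and 10.4 CPM at 8 h and at 8.69, 10.9 and 10.4 CPM at 22 h. With DC it was at 25.4, 34.0 and 28.3 CPM at 8 h and at 21.3, 13.4 and 21.8 CPM at 22 h. The IF values overlapped the unstimulated ones at both times. The DC values lay above them, by a small margin in DC 22 h replicate 2. The rise passed at DC 8 h (log2 fold change 1.25 ± 0.25, adjusted p = 0.00482). At DC 22 h the difference was 0.62 (adjusted p = 0.14), which passed with library size alone (0.0156). At IF 8 h it was -0.14, with a 95% interval of -0.68 to 0.40.

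Nfkbib, which encodes IκBβ (chr7:28758251-28767512, minus strand), varied less. Its mean was 57.6 ± 10.2 CPM in unstimulated cells. At 8 h it was 80.2 ± 12.1 CPM with IF and 106 ± 29.5 with DC, and at 22 h 77.8 ± 18.3 with IF and 72.9 ± 21.7 with DC. It passed only at DC 8 h (log2 fold change 0.88 ± 0.25, adjusted p = 0.044), and leaving out any of 5 libraries (all but DC replicate 3) gave adjusted p-values of 0.0509 to 0.210. Nfkbib shares exonic bases with Ccer2 and Sirt2 on the opposite strand.

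Nfkbid, which encodes the nuclear protein IκBNS (chr7:30421732-30428746, plus strand), was at 116, 70.8 and 89.6 CPM before stimulation. At IF 8 h it was at 298, 258 and 255 CPM and at DC 8 h at 186, 413 and 180.4 CPM. At 22 h it was at 119, 164 and 206 CPM with IF and 104, 184 and 103 CPM with DC. All 6 libraries at 8 h lay above the unstimulated ones, and DC replicate 2 stood far above the other two DC libraries. Nfkbid rose 2.93-fold at IF 8 h (log2 fold change 1.55 ± 0.32, adjusted p = 0.00789) and 2.81-fold at DC 8 h (1.49 ± 0.32, adjusted p = 0.00876). Without DC 8 h replicate 2 the DC value was 0.99 (adjusted p = 0.0570), and without unstimulated replicate 2 it was 1.35 (0.0557). At IF 22 h the difference of 0.82 did not pass (adjusted p = 0.142). It passed there with no low-count filter (0.00356) and with only the groups compared (0.0488). The value was 0.37 without both IF 22 h libraries that stand apart (0.837).

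Bcl3, a nuclear IκB protein that can act as a co-activator with p50 or p52 (chr7:19808462-19822770, minus strand), had the widest range of group means of the 10 genes, 2.95 on the log2 CPM scale. It was at 29.2, 17.2 and 33.5 CPM in unstimulated cells. With IF it was at 36.6, 38.1 and 51.7 CPM at 8 h and at 20.9, 21.6 and 17.4 CPM at 22 h. With DC it was at 124, 149 and 202 CPM at 8 h and at 114, 147 and 152 CPM at 22 h. Every DC library, at both times, lay above every library of the other 3 groups. Bcl3 rose 5.95-fold at DC 8 h (log2 fold change 2.57 ± 0.26, adjusted p = 1.7e-05) and 5.18-fold at DC 22 h (2.37 ± 0.25, adjusted p = 4.8e-05). With IF the differences were 0.66 at 8 h (adjusted p = 0.122) and -0.41 at 22 h (adjusted p = 0.38). The first of these passed with library size alone (0.0327). In order of level Bcl3 was highest at DC 8 h, then DC 22 h, IF 8 h, unstimulated and IF 22 h. Of these neighbours, DC 8 h and DC 22 h (adjusted p = 0.905), IF 8 h and unstimulated, and unstimulated and IF 22 h did not pass, and DC 22 h and IF 8 h, whose libraries did not overlap, were not compared. Bcl3 shares exonic bases with Gm16175 on the opposite strand.

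Counted over the 10 genes, 4 rose and 0 fell at IF 8 h (Nfkb1, Nfkb2, Relb and Nfkbid), where 7.76% of all tested genes were called in either direction and 3.04% as higher. At DC 8 h 7 rose and 0 fell, against 6.82% of all genes called and 2.75% called higher. The 3 that did not pass were Rela, Rel and Nfkbia. At IF 22 h 0 rose and Nfkbia alone fell, against 6.08% called and 3.44% called lower. At DC 22 h 3 rose (Nfkb2, Relb and Bcl3), against 7.76% called and 3.41% called higher. The median log2 fold change of the 10 genes was 0.58 with IF and 1.07 with DC at 8 h, beside 0.02 and 0.04 over all tested genes. At 22 h it was 0.23 with IF and 0.44 with DC, beside 0.01 and 0.04. These 4 comparisons share the unstimulated libraries. Scaled by library size alone, the median over all genes became 0.26, 0.30, 0.22 and 0.37, so directions are relative to the TMM scaling used.

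**Figure D3:**
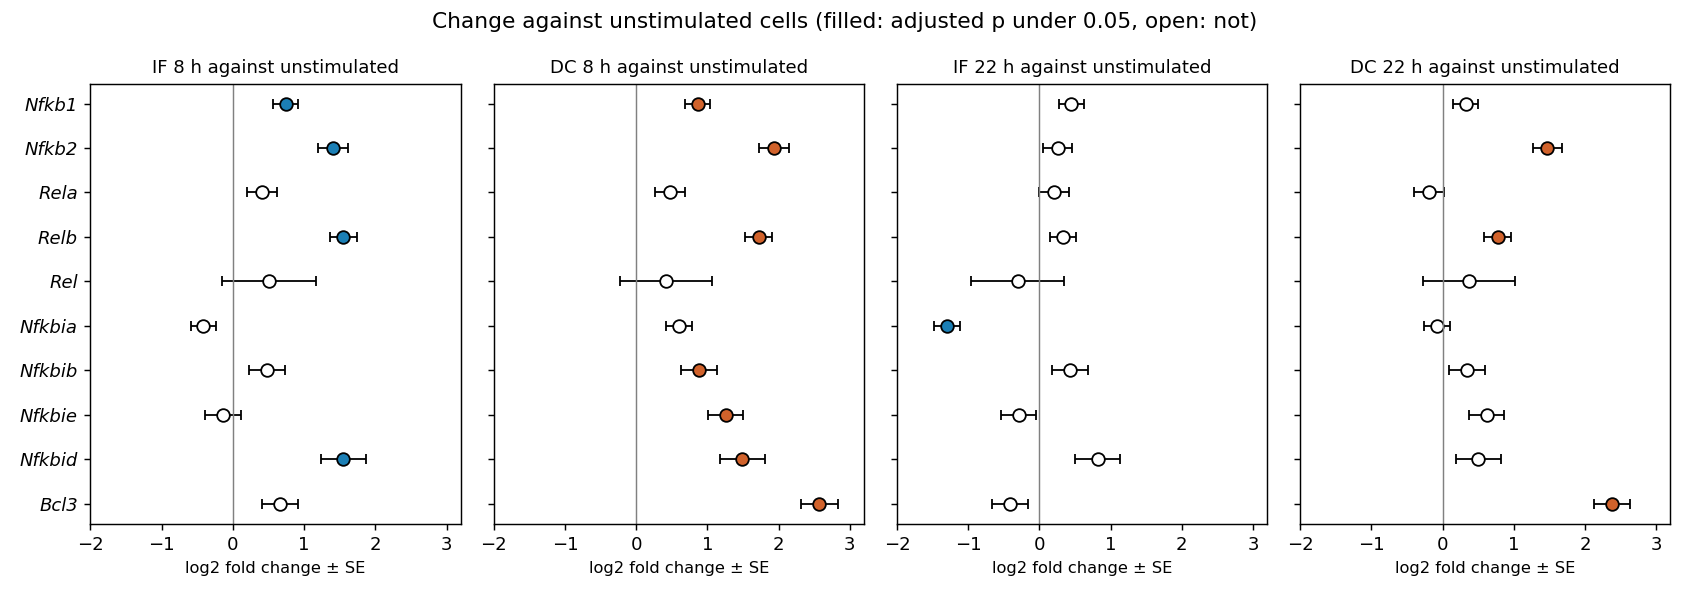
Log2 fold change ± SE (x axes) of each of the 10 genes against unstimulated cells in the 4 stimulated groups, from 3 libraries a group; filled points passed the adjusted p threshold of 0.05 and open points did not. At DC 8 h 7 points are filled, at IF 8 h 4, at DC 22 h 3 and at IF 22 h only the lowered Nfkbia.

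The direct comparison of IF with DC asks how the synthetic stimulus differs from the cellular one. At 8 h, 3 of the 10 genes were lower with IF and 0 were higher, against 0.665% of all genes called and 0.434% called lower. Bcl3 was 3.76-fold lower (log2 difference -1.91 ± 0.25, adjusted p = 0.00101), Nfkbie 2.63-fold lower (-1.40 ± 0.25, adjusted p = 0.0135) and Nfkbia 2.02-fold lower (-1.02 ± 0.18, adjusted p = 0.0126). All 3 encode IκB proteins, and none of the 5 subunits passed. The Nfkbia call was lost without any single IF 8 h library or without DC 8 h replicate 2 (adjusted p = 0.0514 to 0.0636), and the Nfkbie call without IF 8 h replicate 2, IF 8 h replicate 3 or DC 8 h replicate 2 (0.0620 to 0.0685). The Bcl3 call held without each library in turn.

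At 22 h, 3 of the 10 were lower with IF and 0 higher, against 2.43% of all genes called and 1.20% called lower. Bcl3 was 6.91-fold lower (log2 difference -2.79 ± 0.26, adjusted p = 2.0e-05), which ranked 3 by p-value among all 10831 genes in that comparison. Nfkbia was 2.33-fold lower (-1.22 ± 0.18, adjusted p = 0.00123) and Nfkb2 2.31-fold lower (-1.21 ± 0.20, adjusted p = 0.0036). Without both IF 22 h libraries that stand apart, the Bcl3 log2 difference was -2.72 (adjusted p = 0.0178), from 1 IF library and the spread of the other groups. Nfkb2 and Nfkbia then had log2 differences of -1.29 and -0.98 and were not called (adjusted p = 0.207 and 0.281). The Nfkbie difference was -0.91, with no overlap of libraries, and missed the threshold (adjusted p = 0.0571). It passed with library size alone (0.0272), with genes averaging 10 CPM or more (0.0382), by DESeq2 (0.0112) and without DC 22 h replicate 2 (0.0203). It was -1.12 without both IF 22 h libraries that stand apart (adjusted p = 0.638).

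For the genes that rose with both stimuli at 8 h, the IF-DC difference was not called and its 95% interval bounds what could have been missed. On the log2 scale it ran from -0.56 to 0.21 for Relb, from -0.49 to 0.24 for Nfkb1, from -0.60 to 0.72 for Nfkbid and from -0.96 to -0.11 for Nfkb2. The Nfkb2 libraries did not overlap at 8 h (adjusted p = 0.426). At 22 h the interval was -0.83 to -0.06 for Relb and -0.24 to 0.49 for Nfkb1. The median difference over the 10 genes was -0.29 at 8 h and -0.56 at 22 h, beside -0.01 and -0.02 over all genes. A test of whether the IF-DC difference itself changed from 8 h to 22 h called 0 of the 10 and 0% of all genes by edgeR. Bcl3 (-0.88) and Nfkb2 (-0.68) were the 2 of the 10 with an unadjusted p under 0.05, as 7.92% of all genes had (adjusted p = 0.542 and 0.569), and DESeq2 also called 0 of the 10.

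**Figure D4:**
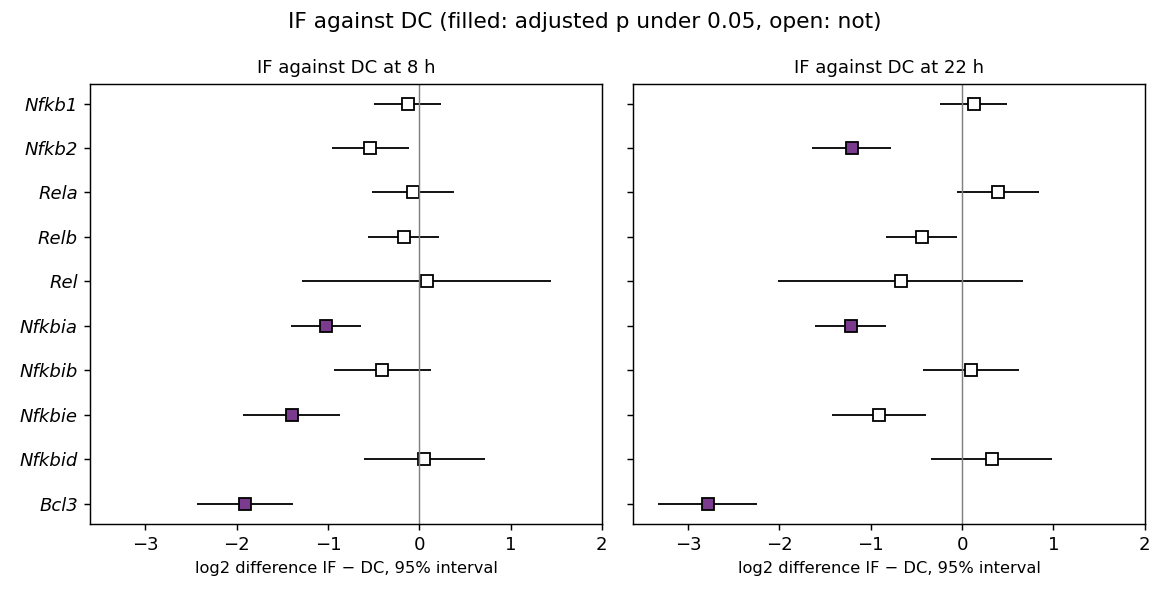
Log2 difference IF minus DC (x axes, squares) with its 95% interval (bars) for each of the 10 genes at 8 h and 22 h, from 3 libraries a group; filled squares passed the adjusted p threshold of 0.05. Bcl3 and Nfkbia are filled at both times, Nfkbie at 8 h only and Nfkb2 at 22 h only, all below 0.

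Since DC were added to the DC wells, markers of that cell type were counted beside these results. The summed CPM of 17 dendritic cell markers was 647.5 to 1536 in unstimulated cells. At 8 h it was 212 to 472 with IF and 854 to 1239 with DC, and at 22 h 374 to 628 with IF and 469 to 641 with DC. In unstimulated cells the largest means were those of H2-Ab1 (228 CPM), Cst3 (221), H2-Eb1 (197), H2-Aa (187) and Cd74 (95.7). Xcr1 averaged 24.1 CPM there, Fscn1 2.31 and Ccl22 0.0489. The sum is therefore no measure of the amount of dendritic cells. Against unstimulated cells, 1 of 13 tested markers of this list rose and 5 fell at IF 8 h and 2 rose and 0 fell at DC 8 h, against 7.76% and 6.82% of all genes called. At 22 h 2 rose and 3 fell with IF (0 and 1 without both libraries that stand apart) and 2 rose and 4 fell with DC, against 6.08% and 7.76%. Without single libraries 2 to 5 fell at IF 8 h, 1 to 3 at IF 22 h and 2 to 4 at DC 22 h. The rises then numbered 0 to 1 at IF 8 h, 2 to 3 at DC 8 h, 0 to 2 at IF 22 h and 2 at DC 22 h. Cst3, which encodes cystatin C, fell at IF 8 h (-1.39), as did H2-Ab1 (-2.29) and H2-Eb1 (-2.09). Ccl22 and Fscn1 rose at DC 8 h (7.58 and 6.16) and at DC 22 h (6.94 and 5.42), while Xcr1 fell at DC 22 h (-6.79). Set against DC, 4 of the 13 were lower and 0 higher with IF at 8 h, where 0.665% of all genes were called. At 22 h 2 were lower, Ccl22 (-2.93) and Ciita (-3.84), and 1 higher, where 2.43% were called. Ccl22 was also lower at 8 h (-3.56). Without single libraries 1 to 5 were lower at 8 h, and 0 to 2 lower and 0 to 1 higher at 22 h, and without both IF 22 h libraries that stand apart 0 were called at 22 h. Fscn1, an actin-bundling protein of mature dendritic cells, was at 126 to 168 CPM at DC 8 h and 72.9 to 94.8 at DC 22 h, against 0.268 to 0.663 at IF 8 h and 5.83 to 43.8 at IF 22 h. Itgax, which encodes CD11c, went the other way, with 11.1 to 15.3 CPM at IF 8 h and 13.98 to 31.8 at IF 22 h, against 3.82 to 6.93 at DC 8 h and 2.05 to 7.69 at DC 22 h. Itgax was the marker called higher with IF at 22 h (2.32, adjusted p = 0.0124). The 4 markers with too few counts to be tested went both ways. At 22 h the group means of Zbtb46 (0.295 CPM with IF and 0.565 with DC), Ccl17 (0.0681 and 1.42) and Cd80 (0.114 and 0.241) were higher with DC, and that of Clec9a (0.488 and 0.0855) was higher with IF, all on few counts. At 8 h the means with IF and DC were 0 and 1.77 CPM for Zbtb46 and 0.348 and 0.487 for Ccl17. Those of Clec9a (0.332 and 0.281) and Cd80 (0.332 and 0.254) were higher with IF. The Zbtb46 libraries of DC 8 h ran from 1.17 to 2.28 CPM. Zbtb46 and Ccl17 were at 0 in all unstimulated libraries, and Zbtb46 also in those of IF 8 h. The part of these markers in the Bcl3, Nfkbia, Nfkbie and Nfkb2 differences was not tested. Of 8 CD8 T cell markers, 7 were in the tables, with summed CPM of 8515 to 9240 in unstimulated and 3829 to 6155 in stimulated libraries. All 7 fell at DC 8 h, 6 at IF 8 h and 5 in each group at 22 h, against 6.82%, 7.76%, 6.08% (IF 22 h) and 7.76% (DC 22 h) of all genes called. The IF 22 h count was 3 to 4 without single libraries and 1 without both libraries that stand apart. At 22 h 3 of the 7 were higher with IF than with DC (0 to 3 without single libraries, and 0 without both IF 22 h libraries). B cell markers summed to 18.8 to 21.3 CPM in unstimulated cells. At 8 h they summed to 7.31 to 33.2 CPM with IF and 3.35 to 10.1 with DC, and at 22 h to 18.3 to 35.1 with IF and 4.76 to 12.5 with DC. NK cell markers summed to 4.42 to 11.4 CPM in unstimulated cells, to 3.98 to 10.7 with IF and 3.47 to 6.75 with DC at 8 h, and to 11.8 to 13.4 with IF and 0.664 to 6.49 with DC at 22 h. The sums of both lists were higher in every IF than in every DC library at 22 h, and their part in the IF-DC differences was not tested. CD4 T cell and neutrophil markers summed to at most 8.62 and 9.08 CPM.

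From 8 h to 22 h with IF, 4 of 10 fell and 0 rose, against 1.12% of all genes called and 0.480% called lower. These were Relb (log2 change -1.22 ± 0.19, adjusted p = 0.00735), Nfkb2 (-1.14 ± 0.20, adjusted p = 0.0131), Nfkbia (-0.89 ± 0.18, adjusted p = 0.0266) and Bcl3 (-1.08 ± 0.25, adjusted p = 0.0467). Without both IF 22 h libraries that stand apart none was called, with changes of -1.45 for Relb, -1.22 for Nfkb2, -0.63 for Nfkbia and -1.001 for Bcl3 (adjusted p = 0.356, 0.498, 0.861 and 0.829), and with a single library left in the IF 22 h group. Of single libraries, leaving out IF 8 h replicate 1, IF 22 h replicate 2 or IF 22 h replicate 3 left Relb alone (1 of 10), and leaving out IF 8 h replicate 2 or 3 left 2 of 10.

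With DC, 1 of 10 fell from 8 h to 22 h, Relb (log2 change -0.94 ± 0.18, adjusted p = 0.0283), against 0.480% of all genes called and 0.102% called lower. That call was lost without any single library except DC 22 h replicate 3 (adjusted p = 0.0674 to 0.163) and with only the 2 groups in the fit (0.222). Bcl3 differed by -0.20 between the times with DC, with a 95% interval of -0.70 to 0.30. The libraries of 22 h lay wholly below those of 8 h for 6 of the 10 genes with DC, where 6.99% of all genes did so, and for 6 of the 10 with IF, where 9.37% did so. With no low-count filter, Nfkbid (adjusted p = 0.000866) and Nfkbia (0.0440) also fell with DC, and Nfkbid (0.0368) with IF. Nfkbia with DC passed as well by DESeq2 (0.0275) and without DC 22 h replicate 3 (0.0453). Same-numbered libraries of DC 8 h and DC 22 h deviated together (r = 0.116, 0.399 and 0.238). With the replicate number as a block in the DC groups, a fit added after the data were seen, 3 of 10 fell, where 1.23% of all genes were called. These were Relb (-0.96, adjusted p = 0.00882), Nfkbid (-0.94, adjusted p = 0.0278) and Nfkbia (-0.68, adjusted p = 0.0442). The median change was -0.77 with IF and -0.59 with DC, beside -0.01 and 0.00 over all genes.

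Other genes of the pathway were taken from lists chosen by function. Of 9 tested receptors upstream of NF-κB, 2 rose with IF and 3 with DC at 8 h, where 7.76% and 6.82% of all tested genes were called in either direction. At 22 h 3 rose with IF (2 without both IF 22 h libraries that stand apart) and 1 rose and 1 fell with DC, where 6.08% and 7.76% of all genes were called. Tnfrsf9 (4-1BB), a co-stimulatory receptor, rose at IF 8 h (5.13), DC 8 h (4.86), IF 22 h (4.96) and DC 22 h (4.30) on the log2 scale, and by 4.64 at IF 22 h without both libraries that stand apart. Cd28, the main co-stimulatory receptor, rose with IF at 8 h (0.93, adjusted p = 0.00766) and at 22 h (1.52, adjusted p = 1.6e-04), the latter by 1.43 in the 1 library left without both that stand apart. It fell at DC 22 h (-0.86, adjusted p = 0.0109). That call was lost without unstimulated replicate 3 (0.0607) and in a fit of DC 22 h and unstimulated libraries only (0.0548). Scaling by total counts per library, without TMM, gave -0.53 and also ended the call (0.0680). Cd28 was higher with IF than with DC by 1.44 ± 0.19 at 8 h (adjusted p = 0.00123) and 2.38 ± 0.20 at 22 h (adjusted p = 1.4e-05). The 22 h difference was 2.29 with the 1 IF 22 h library left without both that stand apart. Tnfrsf18 (GITR), a further TNF receptor family member, was the 1 receptor lower with IF than with DC at 8 h (-0.92, adjusted p = 0.0447), beside 1 higher, Cd28, against 0.665% of all genes called. The Tnfrsf18 call was lost when any of the 6 libraries but DC 8 h replicate 1 was left out (0.114 to 0.189). It was also lost with the replicate block (0.0710) and with only the groups compared (0.0859).

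Of 15 genes of the canonical relay, 0 rose against unstimulated cells, while 2 fell with IF and 1 with DC at 8 h, against 7.76% and 6.82% of all genes called. At 22 h 1 fell with IF (0 without both libraries that stand apart) and 0 with DC, against 6.08% and 7.76%. At DC 22 h edgeR gave 5 of the 15, and 22.2% of all genes, an unadjusted p under 0.05. Without single libraries 0 to 2 fell at IF 8 h, 0 to 1 at DC 8 h and 0 at IF 22 h. Of 7 genes of the non-canonical relay, only Birc3 (cIAP2) was called against unstimulated cells, higher at IF 8 h (0.86 ± 0.21, adjusted p = 0.0179) and DC 8 h (1.58 ± 0.20, adjusted p = 1.7e-04). Its IF call was lost without unstimulated replicate 1 or 3 or IF 8 h replicate 2 or 3 (adjusted p = 0.0521 to 0.0780).

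Of 13 other tested negative regulators, 3 fell with IF and 2 with DC at 8 h, where 1 rose with DC, against 7.76% and 6.82% of all genes called. At 22 h 2 fell with IF (1 without both libraries that stand apart) and 1 with DC, against 6.08% and 7.76%. Tnfaip3 (A20), which removes ubiquitin chains from the relay, fell in all 4 groups, with log2 fold changes of -1.44 (IF) and -1.33 (DC) at 8 h and -2.54 (IF) and -2.25 (DC) at 22 h. The IF 22 h value was -2.95 in the 1 library left without both that stand apart. The IF-DC difference of Tnfaip3 was not called, with -0.10 at 8 h and -0.29 at 22 h (adjusted p = 0.984 and 0.663). Nfkbiz, a further nuclear IκB protein outside the 10 genes, fell at IF 22 h (-1.32, adjusted p = 9.9e-04) and was lower there than at DC 22 h (-0.95, adjusted p = 0.0207). Without both IF 22 h libraries neither was called (-1.17 and -0.80, the latter with an adjusted p of 0.793). Leaving out single libraries ended the difference from DC for replicates 2 and 3 of IF 22 h and replicate 3 of DC 22 h (adjusted p = 0.0626 to 0.122). A fit of the groups compared only ended it too (0.0950). The falls of Tnfaip3 and Nfkbiz were measured against the unstimulated libraries with high Fos counts, and the part of that state was not tested.

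Of 28 known NF-κB target genes, 23 could be tested, and Tnfaip3, Nfkbiz, Tnfrsf9 and Birc3 of the lists above are among them. At 8 h 5 rose and 2 fell with IF, and 9 rose and 1 fell with DC, against 7.76% and 6.82% of all genes called. At 22 h 3 rose and 3 fell with IF (1 and 1 without both libraries that stand apart), and 5 rose and 1 fell with DC, against 6.08% and 7.76%. Without single libraries the rises numbered 2 to 4 at IF 8 h, 7 to 10 at DC 8 h and 2 to 5 at DC 22 h. Their median log2 fold change at 8 h was 0.41 with IF and 0.94 with DC, and at 22 h it was -0.13 and 0.57. Set against DC, 4 targets were lower with IF at 8 h and 6 at 22 h, and 0 were higher at either time, against 0.665% and 2.43% of all genes called. These counts were fragile: without single libraries 0 to 3 were lower at 8 h, and 1 to 5 lower with 0 to 2 higher at 22 h, where 0 were called in either direction without both IF 22 h libraries.

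Of the target genes, Icam1 had the smallest p for IF against DC at 22 h (log2 difference -1.01 ± 0.18, adjusted p = 0.00521). Bcl2l1, which encodes the survival protein Bcl-xL, was lower with IF than with DC by log2 differences of -2.02 at 8 h and -1.99 at 22 h (adjusted p = 0.0356 and 0.0167). Both calls were lost with only the groups compared (adjusted p = 0.0521 and 0.0545). The first call was also lost when replicate 2 or 3 of IF 8 h was left out, or replicate 2 of DC 8 h (adjusted p = 0.150 to 0.180). The second was lost when replicate 2 or 3 of IF 22 h was left out, or replicate 2 of DC 22 h (0.0510 to 0.0633) and without both IF 22 h libraries (-2.42, 0.319). Cd83, a maturation marker of dendritic cells that activated T cells also express, had log2 differences of -2.64 and -2.36 (adjusted p = 0.0252 and 0.0201). Of these calls, the second was lost with only the groups compared (0.0683). The first was lost when the same 8 h libraries were left out (adjusted p = 0.116 to 0.128) and with the replicate block (0.0545). The second was lost when replicate 2 of IF 22 h (0.106) or replicate 1 of DC 22 h (0.0646) was left out and without both IF 22 h libraries (-3.64, 0.147). Traf1, an adaptor of TNF receptors, was lower with IF at 8 h (-0.88, adjusted p = 0.0288). That call was lost without any single library of the 6 (adjusted p = 0.0621 to 0.114), with the replicate block (0.0525) and with only the groups compared (0.0553). Il2ra, the inducible chain of the interleukin-2 receptor, rose at 8 h with IF (4.54, adjusted p = 0.00961) and DC (4.70, adjusted p = 0.00673). Of these 8 h calls only the IF one was lost without a single library, unstimulated replicate 2 (4.09, adjusted p = 0.0529). At 22 h Il2ra rose with IF (3.73, adjusted p = 0.0295) and DC (4.42, adjusted p = 0.00933). That IF call was lost without any unstimulated library or IF 22 h replicate 2 or 3 (0.0660 to 0.126). The value was 3.43 in the 1 library left without both that stand apart. The DC 22 h call was lost without unstimulated replicate 1 or 2 (0.0506 and 0.0549). The IF-DC difference of Il2ra was not called (-0.16 at 8 h, adjusted p = 0.99). Against unstimulated cells, Bcl2l1 and Cd83 rose at DC 22 h (1.75 and 2.03, adjusted p = 0.0166 and 0.0242). Bcl2l1 lost that call without unstimulated replicate 1 or 3 or DC 22 h replicate 2 (0.0762 to 0.0817). Cd83 lost it without unstimulated replicate 1 or 2 or DC 22 h replicate 1 or 2 (0.0585 to 0.109). The part of the dendritic cell markers, some higher with DC and Itgax higher with IF, in these target gene differences was not tested.

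**Figure D5:**
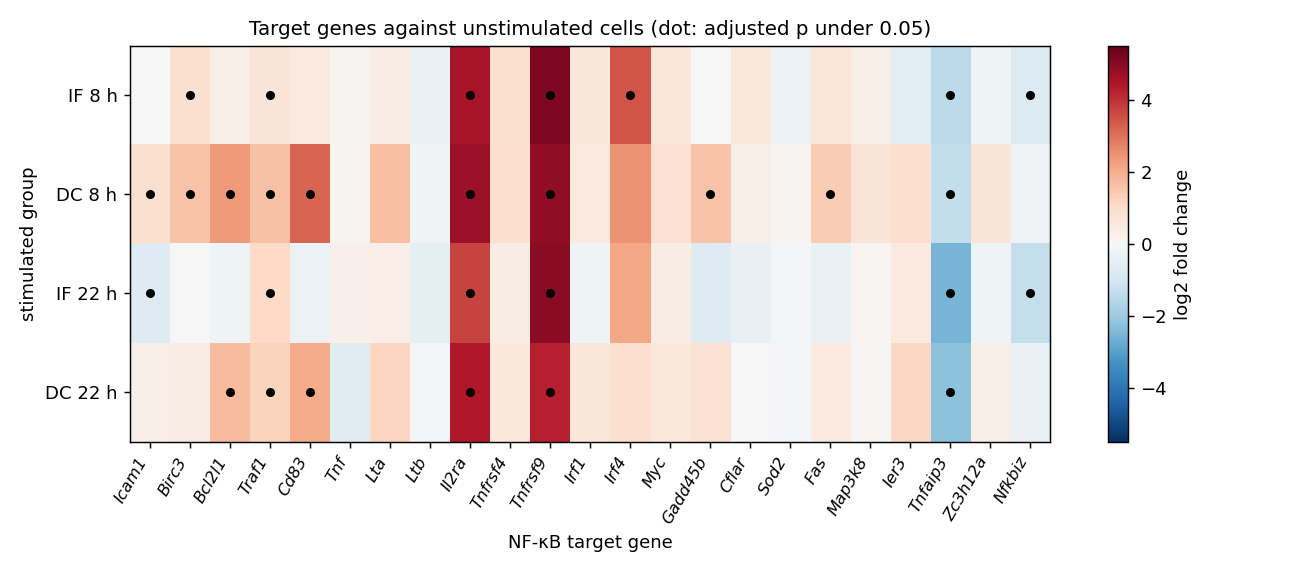
Log2 fold change against unstimulated cells (colour bar, red higher and blue lower) of the 23 tested NF-κB target genes (columns) in the 4 stimulated groups (rows, 3 libraries each); a dot marks an adjusted p under 0.05. Tnfrsf9 and Il2ra are high in all 4 rows, Tnfaip3 is low in all 4, and Bcl2l1 and Cd83 carry dots in the DC rows only.

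The tested genes outside the 10 whose log2 CPM followed Bcl3 most closely over the 15 libraries were Pim2 (Pearson r = 0.930), Cish (0.910) and Plagl1 (0.898), given as a description, since the libraries share groups. Pim2 encodes a serine/threonine kinase and Cish a SOCS-family inhibitor of cytokine signalling. The group means of Pim2 were 108 CPM in unstimulated cells, 134 with IF and 225 with DC at 8 h, and 104 with IF and 198 with DC at 22 h. Those of Cish were 4.22, 7.89, 64.2, 3.40 and 46.2 CPM in that order. Both were highest in the 2 DC groups, as Bcl3 was. Plagl1, a zinc finger gene, was at 0 in all unstimulated libraries and reached 3.66 CPM at DC 8 h and 2.85 at DC 22 h. Cish and Plagl1 overlap exons of opposite-strand genes.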

How the data were processed

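RNA was measured in 15 libraries made with an adapted CEL-seq protocol, per the labels' protocols. The deposited tables hold raw counts per gene and library as whole numbers, which the authors did not normalize. BWA and the mm10 build are named, per the submitters' processing notes, while the counting program, annotation, and use of strand and molecular identifiers are not given in the sources used here. Amplified reads need not be independent molecules, so depth covers counting error only.

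The test was edgeR 4.0.16 under R 4.3.3, with limma 3.58.1 loaded by it. The function filterByExpr kept genes (minimum count 10, minimum total 15), libraries were scaled by TMM, and 1 quasi-likelihood fit with 5 group means gave 9 comparisons. A prior count of 0.125 was used for log2 fold changes, SE was taken from the F statistic, and log2 CPM for likeness had a prior count of 2. The steps were tested on simulated data.

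All 10 members were named throughout, and from each pathway list at most the 3 genes with the smallest p among those called in a comparison. Of the markers, Cst3, H2-Ab1, H2-Eb1, Fscn1, Ccl22, Xcr1, Ciita and Itgax came from the same rule. The 4 untested markers and the group means of H2-Aa and Cd74 were added after their values were seen. The members and lists were chosen with earlier results of these data known. Alternatives were DESeq2 size factors or library size alone, every counted gene kept, genes averaging 10 CPM or more, DESeq2 1.42.0, only the groups compared, the replicate number as a block, and leaving out single libraries or both IF 22 h libraries that stand apart. Deviations from the group means of same-numbered libraries were correlated over 0.1 in all 3 pairs of DC 8 h with DC 22 h (r from 0.116 to 0.399, different numbers -0.307 to 0.117) and in no other pair of groups throughout, so a fit with the block within the DC groups was added for their time comparison. Libraries of a group differed by more than counting noise, so none were merged. Chi-square per degree of freedom between 2 libraries of a group ran from 9.95 to 105. It was largest for DC 22 h replicates 2 and 3 (105) and IF 22 h replicates 1 and 3 (103). DC 8 h replicate 2 differed by 37.7 and 41.7 from replicates 1 and 3, which differed by 18.6. This value also grows with depth. Gene positions and exonic overlaps were taken from GENCODE vM21, which uses the same assembly as mm10, and promoter sequences from RefSeq (GRCm38.p6). Otulin, Trac, Pax5 and Bcl2a1d were not analysed here.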

Additional observations from a re-analysis of the deposited data

How the results depend on the processing

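Of 1281 recomputed fold changes of the 10 genes, 47 lost a call, 25 gained one and 0 changed sign with a call in either fit, while 38 changed sign with a call in neither, 6 of them without both IF 22 h libraries that stand apart. The count of members called at IF 22 h, 1, was 2 with library size alone, 2 with no low-count filter, 2 with only the groups compared and 0 without both IF 22 h libraries that stand apart. At DC 22 h the count of 3 became 5 with library size alone. For IF against DC, the count of 3 ran from 1 to 3 at 8 h without single libraries, and it was 1 at 22 h without both IF 22 h libraries that stand apart. From 8 h to 22 h, the IF count of 4 ran from 1 to 4 without single libraries and was 0 without both IF 22 h libraries. The DC count of 1 was 3 with no low-count filter, 2 by DESeq2 and 0 with only the groups compared, and ran from 0 to 2 without single libraries. The replicate block left all 9 counts as they were, at 4, 7, 1, 3, 3, 3, 4, 1 and 0 members, and none of 90 single member calls changed. Of 39 calls of the pathway genes named with values other than Icam1, recomputed 520 times, 85 values lost the call, 0 reversed, and 19 calls were lost under no setting. Only the DC 8 h and DC 22 h libraries deviated together by number in all 3 pairs. There the count of 1 was 3 with the replicate block of the DC groups only and 3 with the replicate block with only the DC groups, both added after the data were seen, with 133 and 166 of all genes called against 52. Over all genes, DESeq2 called more than edgeR, with 1269 against 840 at IF 8 h, 1175 against 739 at DC 8 h, 195 against 72 and 563 against 263 for IF against DC at 8 h and 22 h, 366 against 121 and 210 against 52 from 8 h to 22 h with IF and DC, and 40 against 0 for the change of the IF-DC difference. The cause of these shifts was not tested, except that fewer libraries enter when some are left out. Rel had the fewest counts of the 10 genes, 8 to 107 per library.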
